A study of Mus musculus with 12 samples.

Results

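Of the 173452 autosomal ATAC–seq peaks in the table that compared 4in1_Prox1_OE with 4in1_GFP_OE cells, 1716 stood alone, with more than 50 kb of sequence between the peak and the next peak on either side. They were found from position alone, by sorting the peaks along each autosome and keeping those whose gap was over 50 kb to the left and to the right. The whole table, sex chromosomes included, held 176680 peaks. The study transduced primary mouse embryonic fibroblasts (MEFs), a mixed culture of embryonic connective tissue cells, with lentivirus and harvested them at day 2 of doxycycline. All 12 libraries came from wild-type C57BL/6N cells of E13.5 embryos, and all carried rtTA, the doxycycline-dependent activator that drives the transgenes. The compared groups of 3 libraries each both received 4in1, a cassette of transcription factors used to turn fibroblasts towards induced hepatocytes. Beside it 4in1_GFP_OE received GFP and 4in1_Prox1_OE FLAG-tagged mouse Prox1, each from a doxycycline-inducible tetO promoter. The MEF group with rtTA alone and the Prox1_OE group without the cassette, also with 3 libraries each, were not analysed here. Transduced and untransduced cells were not separated by any step given in the sources used here, so a window gives an average over the culture, in which fewer cells of a kind and less open chromatin per cell cannot be told apart. The fibroblasts were prepared from the limbs of several embryos together.

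ATAC–seq reads the sites where the Tn5 transposase can enter chromatin. Most open sites of a genome lie in promoters and in clusters of enhancers near genes, while gene deserts, long stretches with few or no genes, hold scattered distal elements, insulator sites bound by CTCF and copies of transposable elements. PROX1 is a homeobox transcription factor of hepatocytes, lymphatic endothelium and neuronal precursors. It is known to work with corepressors in liver and mainly as an activator in lymphatic endothelium and neural stem cells. Each value below is the authors' mean of normalised reads in a window of 201 bases for a whole group, taken back from their log2 scale. No value per library was at hand, so no difference below has an error or a test, and the depth behind it is unknown. A window is called higher or lower where the Prox1 group mean was at least 2-fold above or below the GFP group mean. As a check of the label, 10 of 10 fibroblast marker genes had a promoter peak, against 2 of 10 hepatocyte genes, 2 of 5 blood genes and 2 of 4 endothelial genes. Where present, the promoter peaks of the fibroblast, hepatocyte, blood and endothelial genes had median levels of 8.31, 8.08, 7.57 and 8.51 on the authors' log2 scale over both groups, so the level did not set the lists apart.

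A share of the isolated peaks fell into a few recurring sequence families, and copies of the largest are shown first as an example of windows that share sequence. The following windows are on GRCm38 (mm10) and written 5′ to 3′ in a shared orientation, with the copy on chromosome 2 read from the minus strand and the others from the plus strand. Capitals mark runs of at least 8 bases identical in all 3.
chr10:6646440-6646640: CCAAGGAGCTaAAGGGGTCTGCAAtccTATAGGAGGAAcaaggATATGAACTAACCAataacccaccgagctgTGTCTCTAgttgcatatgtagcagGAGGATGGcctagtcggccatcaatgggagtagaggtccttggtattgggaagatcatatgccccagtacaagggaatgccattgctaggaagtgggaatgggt
chr2:87219264-87219464: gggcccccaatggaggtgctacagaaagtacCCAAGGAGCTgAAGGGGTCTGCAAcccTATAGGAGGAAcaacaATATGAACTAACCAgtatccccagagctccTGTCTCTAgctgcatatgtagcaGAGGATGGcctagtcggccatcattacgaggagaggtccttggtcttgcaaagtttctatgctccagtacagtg
chr14:38008578-38008778: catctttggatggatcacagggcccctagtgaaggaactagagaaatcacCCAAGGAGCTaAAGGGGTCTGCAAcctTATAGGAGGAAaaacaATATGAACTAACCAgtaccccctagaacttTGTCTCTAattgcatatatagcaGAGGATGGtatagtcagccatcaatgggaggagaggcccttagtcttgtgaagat
These windows lay between genes, nearest to the start sites of Oprm1, the mu opioid receptor, of the olfactory receptor gene Olfr1113 and of the predicted gene Gm47974. Their group means were 10.2, 5.32 and 2.73 normalised reads with GFP and 66.5, 60.5 and 56.1 with Prox1. The last 2 were under 10 reads with GFP, a class in which every autosomal peak was higher with Prox1.

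Single windows outside the sequence families are shown for the largest differences and the highest level. In them capitals mark exact matches, on either strand, of AP-1 (TGACTCA or TGAGTCA), of TEAD (CATTCCA), of the octamer of POU factors (ATGCAAAT), of the GC box of SP and KLF factors (GGGCGG) and of CTCF, all on the plus strand of GRCm38. Among isolated peaks at or above their median level, the first 3 windows had the largest differences upwards and the next 3 differences among the largest downwards, and the last window had the highest level of all.
chr3:24942784-24942984: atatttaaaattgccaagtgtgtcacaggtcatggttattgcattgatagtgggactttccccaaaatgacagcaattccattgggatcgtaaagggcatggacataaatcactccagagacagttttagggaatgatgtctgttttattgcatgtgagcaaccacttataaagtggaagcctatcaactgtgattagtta
chr1:111072898-111073098: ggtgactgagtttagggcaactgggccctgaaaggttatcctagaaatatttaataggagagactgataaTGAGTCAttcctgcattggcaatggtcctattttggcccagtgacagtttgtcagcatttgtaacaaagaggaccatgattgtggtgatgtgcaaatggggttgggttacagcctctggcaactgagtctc
chr10:104209765-104209965: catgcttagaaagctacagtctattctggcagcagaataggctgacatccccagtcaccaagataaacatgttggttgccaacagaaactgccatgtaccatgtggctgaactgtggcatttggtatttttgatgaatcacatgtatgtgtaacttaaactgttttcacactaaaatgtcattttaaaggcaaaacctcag
chr16:66272618-66272818: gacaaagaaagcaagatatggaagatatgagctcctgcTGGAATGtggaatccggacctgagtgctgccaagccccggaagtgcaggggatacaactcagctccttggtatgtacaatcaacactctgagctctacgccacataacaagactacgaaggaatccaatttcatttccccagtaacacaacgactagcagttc
chr16:70008912-70009112: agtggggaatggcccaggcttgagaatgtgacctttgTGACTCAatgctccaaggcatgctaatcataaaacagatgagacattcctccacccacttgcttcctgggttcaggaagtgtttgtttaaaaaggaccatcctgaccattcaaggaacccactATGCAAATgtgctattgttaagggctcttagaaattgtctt
chr4:92641378-92641578: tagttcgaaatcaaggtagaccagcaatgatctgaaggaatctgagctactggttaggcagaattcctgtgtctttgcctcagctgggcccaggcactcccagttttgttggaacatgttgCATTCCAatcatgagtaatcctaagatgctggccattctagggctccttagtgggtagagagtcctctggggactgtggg
chr6:66535136-66535336: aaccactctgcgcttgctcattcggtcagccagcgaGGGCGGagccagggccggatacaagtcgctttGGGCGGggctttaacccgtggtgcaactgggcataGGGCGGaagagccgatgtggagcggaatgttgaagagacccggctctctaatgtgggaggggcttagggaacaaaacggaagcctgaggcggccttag
A match is a description of the letters and does not show that a factor was bound.

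As a set, the isolated peaks had a group mean of 87.6 normalised reads with GFP and 74.9 with Prox1 at the median, against 122 and 88.6 over all autosomal peaks. The median difference, Prox1 minus GFP on the log2 scale, was −0.13 at the isolated peaks and −0.41 over all autosomal peaks. At least 2-fold lower were 317 isolated peaks (18.5%), and over all autosomal peaks the percentage was 24.2. At least 2-fold higher were 367 (21.4%), against 8.44 percent of all autosomal peaks. The remaining 1032 isolated peaks were within 2-fold. Past 4-fold were 224 isolated peaks higher (13.1%, against 2.25% of all) and 2 lower (0.117%, against 0.358%). Of these 224, 122 had a GFP group mean under 10 reads, and without such peaks 102 isolated peaks (6.40%, against 1.81% of all) were past 4-fold higher. The sum of the group means over the isolated peaks was 0.897 times as large with Prox1 as with GFP, against 0.751 times over the whole table.

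The sign of many small differences depends on where 0 is placed, because the whole table was shifted. Its median difference was −0.42, and setting that to 0 left 109 isolated peaks lower (6.35%) and 455 higher (26.5%), against 8.56% and 13.6% of all autosomal peaks. Centred this way the median isolated peak was at 0.28. Taken relative to the strongest 10% of the table, whose own median was −0.26, 167 isolated peaks were lower (9.73%) and 412 higher (24.01%), against 13.8% and 11.3%.

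**Figure D1:**
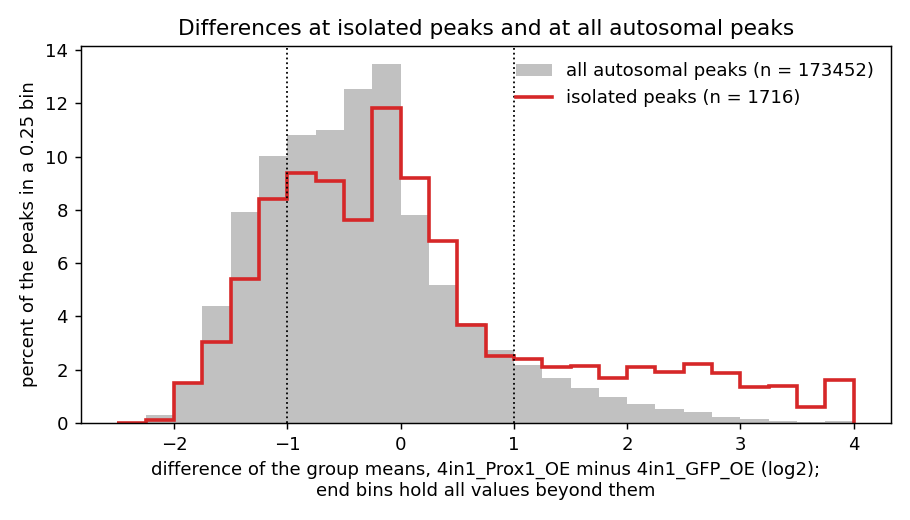
The x axis gives the difference of the group means, 4in1_Prox1_OE minus 4in1_GFP_OE, on the log2 scale, and the y axis the percent of peaks in each bin, with all autosomal peaks in grey and the 1716 isolated peaks as a red line. The red line has a long arm to the right of the dotted 2-fold line, where 21.4% of the isolated peaks lie, against 8.44% of all autosomal peaks.

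The levels of the higher and lower peaks are a description, since the group means also define these classes. With GFP, the peaks higher with Prox1 had a median group mean of 14.4 normalised reads, with an interquartile range of 8.11 to 25.0, and their median with Prox1 was 68.8, beside 28.3 and 87.8 at all higher autosomal peaks. The lower peaks went from a median of 119.6 to 46.3, beside 162.8 and 63.3 at all lower autosomal peaks, and isolated peaks within 2-fold went from 99.9 to 90.7. In 122 isolated peaks (7.11%) the GFP group mean was under 10 reads, which held for 0.453% of all autosomal peaks. All 786 autosomal peaks with so low a GFP mean, these 122 among them, were higher with Prox1, so nothing is read from the direction of the 122. Of these, 14 were under 3 reads and 3 at a single read, the floor of the scale, and no fold is given for them. No isolated peak had a Prox1 group mean under 10 reads. Leaving out the peaks under 10 reads with GFP, 15.4% of the isolated peaks were higher and 19.9% lower, against 8.03% and 24.4% of all autosomal peaks.

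**Figure D2:**
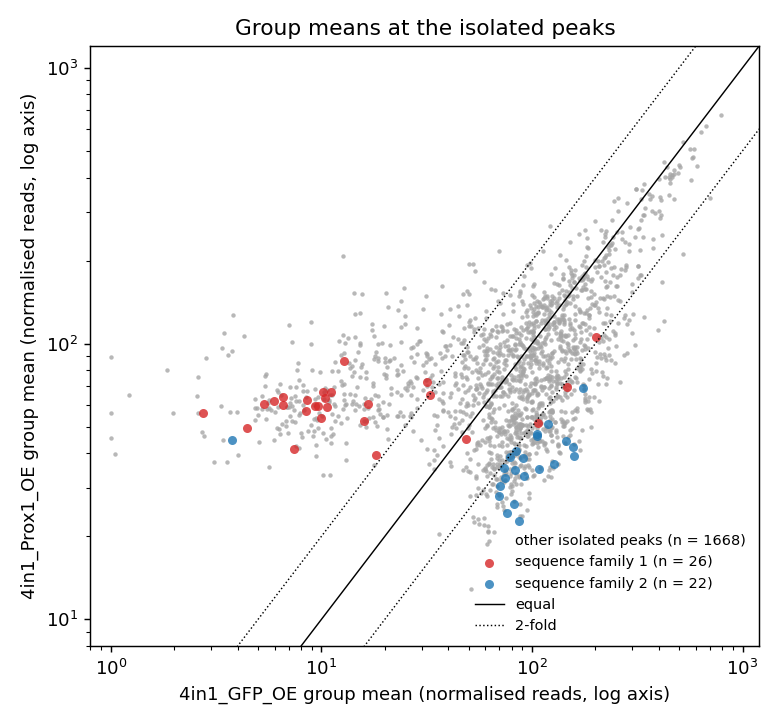
Each point is an isolated peak, placed by its GFP group mean (x axis) and its Prox1 group mean (y axis) in normalised reads on log axes, with the solid line at equal means and the dotted lines at 2-fold. The points above the upper dotted line spread over GFP means down to a single read while their Prox1 means lie mostly around 68.8, and the coloured points mark the 26 and 22 members of the sequence families.

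The share of higher peaks was concentrated at the weakest windows. In the lowest 25% of all autosomal peaks by mean concentration, the authors' log2 mean over both groups, there were 632 isolated peaks, of which 48.3% were higher and 15.98% lower, against 21.2% and 16.9% of all peaks in that band. In the next 3 bands the isolated peaks higher were 8.89%, 3.09% and 0.690%, beside 9.04%, 3.28% and 0.293% of all peaks. The lower ones were 22.3%, 20.1% and 10.3%, beside 26.9%, 31.9% and 21.3%. Banded by the larger of the 2 group means instead, a banding chosen after seeing the data, 40.1% of the isolated peaks in the lowest band were higher, against 15.4% of all. In the second band the values were 16.3% and 12.1%, and in the third 7.01% and 5.52%. In the lowest band of this banding the lower share was 11.4% of the isolated peaks and 11.1% of all. By band of mean concentration the higher shares of isolated and all peaks were thus far apart in the lowest band only. The lower share of the isolated peaks was below that of all peaks in each of the 4 bands of mean concentration. Level was not matched inside a band. The part of the low level in the share of higher peaks was not tested.

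The shares also differed by distance to the nearer neighbour. Among autosomal peaks with the nearer neighbour under 1 kb away 9.07% were higher, at 1 to 5 kb 7.33%, at 5 to 20 kb 8.78%, at 20 to 50 kb 13.7%, and at the isolated peaks 21.4%. The lower peaks went from 20.4% through 26.3%, 23.6% and 23.2% to 18.5%. Neither series ran one way, and peaks under 1 kb from a neighbour were higher more often than those at 1 to 20 kb. Without peaks under 10 reads with GFP the higher shares were 8.56%, 7.15%, 8.39%, 12.3% and 15.4%. The level of the peaks moved with distance too, since the median GFP group mean of these bins was 97.3, 134.9, 124, 99.9 and 87.6 normalised reads. Just outside the limit, 720 peaks with a nearer neighbour at 40 to 50 kb had 15.8% higher and 21.1% lower. Just inside it, 468 peaks at 50 to 60 kb had 17.7% and 19.4%. The 520 isolated peaks with over 100 kb on both sides had 27.5% higher, 15.8% lower and a median difference of 0.024.

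**Figure D3:**
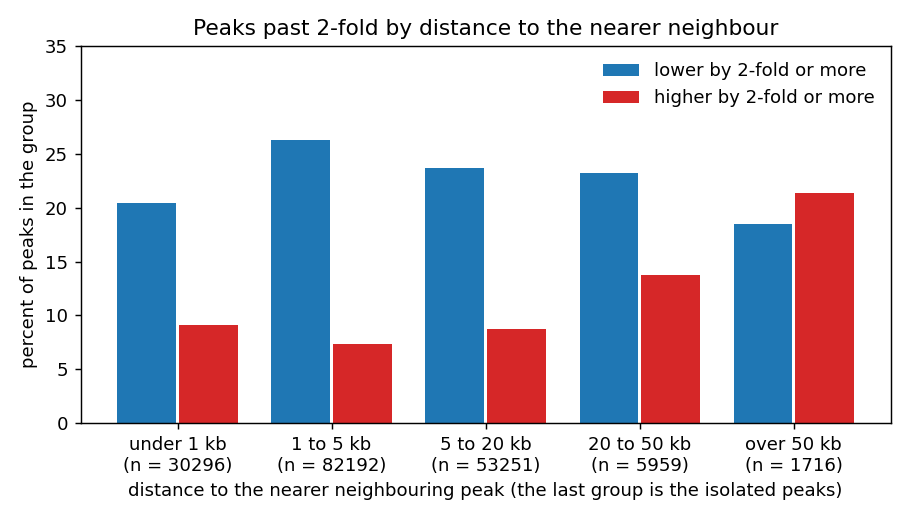
Bars give the percent of autosomal peaks at least 2-fold lower (blue) and at least 2-fold higher (red) with Prox1, by the distance to the nearer neighbouring peak, with the number of peaks under each group. The red bar is 7.33% at 1 to 5 kb and 21.4% at the isolated peaks on the right.

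The surroundings were poor in genes as well as in peaks. The nearer gap was 75249.5 bases at the median and reached 1261265 bases, with 23 isolated peaks over 500 kb from both neighbours. Within 500 kb on either side an isolated peak had a median of 22 other peaks, against 103 for an autosomal peak. By the lowest-coordinate start site of each protein-coding gene, none lay within 500 kb of 552 isolated peaks (32.2%), against 3.13% of all autosomal peaks. Other start sites of a gene were not counted. The 100 kb around the isolated peaks had 38.2% GC and 40.6% soft-masked sequence, which is repeats, against 44.0% and 27.3%. The windows themselves had 43.3% GC, against 48.8%.

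By GENCODE annotation, 1128 isolated peaks (65.7%) were intergenic, 411 (23.95%) intronic, 24 (1.40%) exonic and 153 (8.92%) within 1 kb of a start site, here called promoters. All autosomal peaks were 36.3% intergenic, 46.1% intronic, 5.20% exonic and 12.4% promoters. Intergenic isolated peaks were higher in 24.2% and lower in 20.2%, against 9.69% and 27.2% of all intergenic peaks. The intronic ones were higher in 19.5% and lower in 18.7%, against 8.77% and 27.0%.

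Promoters within the deserts were the most even. Of 101 isolated promoters of protein-coding genes none was higher and 5 (4.95%) were lower, beside 1.64% and 4.23% of all such promoters. At the median they had 220 normalised reads with GFP and 188 with Prox1. The 5 lower ones belonged to Cypt12, Pcdh15, Iigp1, Ndst4 and Csn3. Ndst4, an enzyme of heparan sulphate synthesis, had group means of 276 and 127. Csn3, the kappa casein of milk, had 126 and 61.8. Iigp1, an interferon-inducible GTPase, had 113 and 48.8. Pcdh15, a protocadherin of hair cell tip links, had 53.2 and 22.6, and Cypt12 had 61.8 and 21.8. At the 52 promoters of other transcripts 10 (19.2%) were higher and 4 (7.69%) lower, beside 7.81% and 20.2% of all such promoters. Of the 10 higher ones 3, at Gm18033, Gm22992 and Gm43779, were under 10 reads with GFP, where every autosomal peak was higher.

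The 5 isolated peaks of highest level were all promoters and all within 2-fold. Mad2l1, a spindle checkpoint protein whose window is printed above with 3 GC boxes, had 789 normalised reads with GFP and 672 with Prox1, the highest level of all. Eif2ak1, the haem-regulated kinase of the translation factor eIF2, had 674 and 615. Nedd1, which brings gamma-tubulin to the centrosome, had 634 and 586. The predicted gene Gm5165 had 589 and 507, and Tbc1d32, a gene of cilia, had 565 and 507. The promoters of these genes differed by 0.12 to 0.23 downwards on the log2 scale, less than the shift of the whole table. Among the peaks of smallest difference in the upper part of the level range were the promoter of Slc16a14, a monocarboxylate transporter family member, with 200.3 and 200.2 normalised reads, and a window in an intron of Nkain2 with 243 and 242.8.

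The 6 isolated peaks with the largest difference upwards, among those at or above the median level, had group means of 12.7 to 24.8 normalised reads with GFP and 142 to 209 with Prox1. The first lay in an intron of Naaladl2, 159 kb from the gene's start, with 12.7 and 209 normalised reads, a log2 difference of 4.04, and held none of the motifs in capitals. The next lay 95.5 kb from Cdh19, a cadherin of the Schwann cell lineage, with 14.3 and 153 and a single AP-1 match. The third lay 14.4 kb from Gm4340, with 15.5 and 151. The other 3 were near the predicted genes AC126448.1, Gm47224 and Gm49115, of which the first is 1476 kb and the last 1100 kb from any protein-coding start site. Each of these 3 held an AP-1 match, so 4 of the 6 windows held one, while over all higher isolated peaks the share was 15.8%, against 44.8% of the lower ones. None of the 6 upward ones belonged to the sequence families 1 and 2.

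The 6 with the largest difference downwards had 157 to 191 normalised reads with GFP and 39.1 to 50.0 with Prox1. The largest, 457 kb from Vgll3, a cofactor of TEAD proteins, went from 169 to 41.2, a log2 difference of −2.03, and held a TEAD match. The peak nearest Gm49655 went from 191 to 50.0 and held an AP-1 match and an octamer. The peak nearest Gm12637 went from 168 to 44.3 and held a TEAD match. An intronic peak and an intergenic peak among the 6 were copies of the second sequence family. The last, 181 kb from Cdh19, went from 158 to 43.1, and so the gene's surroundings held an isolated peak of each direction. All 12 of these peaks were past 2-fold with 10 reads added to both means and under each of the 3 centrings tried. They were picked for large differences, so the centring shifts of −0.26 to −0.42 could not bring them within 2-fold.

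The most isolated peak lay on chromosome 1 at 117013777 to 117013977, with 1839 kb to its left and 1261 kb to its right and 211 kb from the predicted gene Gm19965. Its group means were 1.97 normalised reads with GFP and 55.8 with Prox1. The next most isolated, 35.4 kb from Pom121l12, had gaps of 910 and 1135 kb, means of 105 and 86.4 and an AP-1 match. The third, at the promoter of Gm3667 with gaps of 1010 and 860 kb, had 124 and 92.3.

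Sequence families were sought after seeing the data, by aligning the windows to each other with BLAST and joining those with at least 75% identity over at least 100 bases. Of the isolated peaks 363 (21.2%) were similar to some other autosomal peak and 179 (10.4%) to another isolated peak, and 10 families had 5 or more isolated members, 102 in all. How reads that fit several copies were treated is not given in the sources used here. The BLAST matches kept for the 2 main families were 75.1% to 90.1% identical, with a median of 79.0% in the first and 81.2% in the second. The lower end follows from the limit of 75%, so less similar pairs of copies are not in this range. The reference carries no repeat names, so the families are numbered.

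Family 1 had 26 isolated members on 16 autosomes, 21 intergenic and 5 intronic, of which 21 were higher, 2 lower and 3 within 2-fold. All 12 members under 10 reads with GFP were among the 21, and the 14 others had 9 higher, 2 lower and 3 within 2-fold, with a median log2 difference of 1.45. Their GFP group mean ran from 2.73 to 200.8 normalised reads with a median of 10.3, and their Prox1 group mean from 39.4 to 106 with a median of 60.1. Over all 26 the median log2 difference was 2.59 and was 2.86 to 3.01 under the 3 centrings, where 22 were higher and none lower. The 2 lower members, on chromosomes 1 and 18, had 107 and 146 normalised reads with GFP. The highest of all with GFP, 200.8 reads near Msantd4 on chromosome 9, went to 106. The 208 other autosomal peaks similar to family 1, which were not isolated, had 99 higher, 13 lower and a median of 0.91, with median means of 32.4 and 59.8. Of these, 31 were under 10 reads with GFP, all higher, and the other 177 had 68 higher (38.4%), 13 lower (7.34%) and a median of 0.40.

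Family 2 had 22 isolated members on 8 autosomes, of which 21 were lower and 1 higher. Their group means had medians of 89.0 normalised reads with GFP and 37.5 with Prox1, and the median log2 difference was −1.28. The exception lay near Gm23324 on chromosome 14, with 3.77 reads with GFP and 44.7 with Prox1. Of 361 similar peaks that were not isolated, 337 were lower and 1 higher, with a median difference of −1.50 and medians of 112 and 39.7. Under the centrings 9 to 11 of the 22 were past 2-fold lower, 1 was higher and the median was −0.87 to −1.02, so the direction held and the call did not in every copy. The octamer was present in 15 of the 22 and in 214 of the 361. It did not divide them: of all 229 family 2 windows with the octamer 93.4% were lower and of the 154 without it 93.5%.

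**Figure D4:**
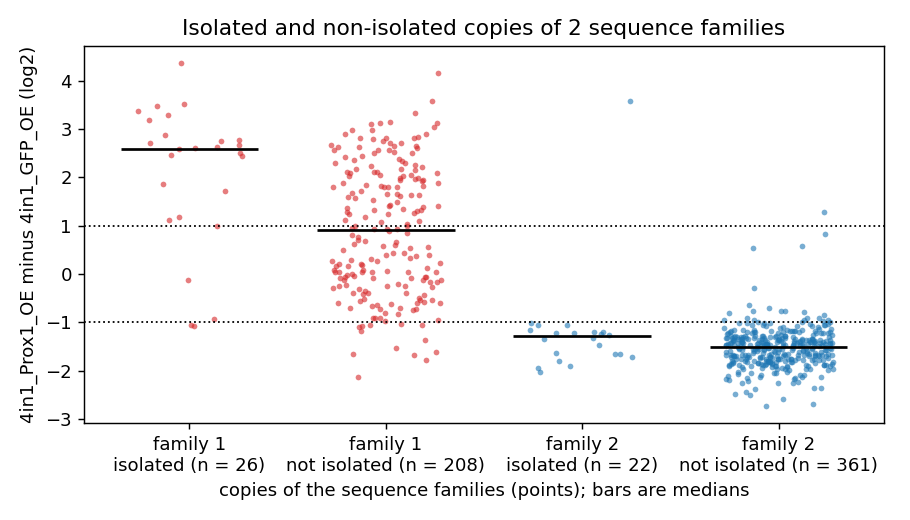
Each point is an ATAC–seq peak similar in sequence to family 1 (red) or family 2 (blue), in isolated and non-isolated copies, placed by the log2 difference of its group means, with the median as a bar and dotted lines at 2-fold. Family 1 copies spread upwards with medians of 2.59 and 0.91, and most family 2 copies lie below the lower line, with medians of −1.28 and −1.50.

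The smaller families were mixed. Family 3 had 10 isolated members, 8 of them with CTCF matches. In this family 2 members were higher, 1 of them under 10 reads with GFP, and 1 was lower. Among its 848 non-isolated relatives 573 had CTCF matches, 7.08% were higher and 9.91% lower, and the median difference was 0.02. Family 4 and family 5 had 8 isolated members each, 7 of them with an AP-1 match in either. Family 4 had 4 lower and 1 higher, beside 37.9% and 6.03% of its 116 non-isolated relatives. Family 5 had 2 lower and 1 higher, beside 9.15% and 16.1% of 317. Families 7 and 8 were promoters. The 6 members of family 7 lay on chromosome 12 at predicted genes and clone-named transcripts, with medians of 381 and 337 normalised reads. The 6 of family 8 lay on chromosomes 2, 5 and 7 at genes such as Zfp937, with medians of 342 and 251. All 12 were within 2-fold, and in neither family was any of the non-isolated relatives, 10 and 26, past it. Families 9 and 10, with 5 members each, had 3 higher in each and none lower. The non-isolated relatives of family 9 were higher in 31.5% and lower in 0 of 54, and those of family 10 higher in 33.3% and lower in 10.4% of 48. In family 10, 2 of the 3 higher members were under 10 reads with GFP.

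Repeat content followed the same lines. Windows over 75% soft-masked numbered 105 isolated peaks, of which 50 (47.6%) were higher and 32 (30.5%) lower, so 23 were within 2-fold. Over all autosomal peaks masked to this extent, 21.7% were higher and 24.2% lower. Without families 1 and 2, 63 remained in this class, with 30 higher and 12 lower. The 643 isolated peaks with no masked base had 16.2% higher and 18.2% lower, against 7.17% and 23.3% of unmasked autosomal peaks. Among the 1353 isolated peaks with no similar window elsewhere 19.4% were higher and 17.8% lower, beside 21.4% and 18.5% of the whole set.

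AP-1, the Fos and Jun dimer, is a main factor of open distal sites in fibroblasts. Its motif was in 517 isolated peaks (30.1%) and in 23.0% of all autosomal peaks. Isolated peaks with it were lower in 27.5% and higher in 11.2%, and those without it lower in 14.6% and higher in 25.8%. All autosomal peaks with the motif were lower in 40.6% and higher in 5.37%, and those without it lower in 19.4% and higher in 9.36%. The 70 isolated peaks with 2 or more matches were lower in 37.1% and higher in 5.71%, against 46.4% and 2.71% of all autosomal peaks with as many. Read the other way, 44.8% of the lower isolated peaks held the motif, 30.7% of those within 2-fold and 15.8% of the higher ones. In the lowest 25% by level, isolated peaks with the motif were lower in 27.9% and those without in 12.9%, and in the next bands 29.2% against 17.8%, 27.6% against 16.1% and 14.3% against 9.09%. Over all autosomal peaks the same 4 bands had 31.7% against 14.2%, 38.5% against 23.1%, 45.8% against 26.5% and 42.5% against 14.7%. The higher share in the lowest band was 30.2% of isolated peaks with the motif and 52.9% of those without, beside 14.9% and 22.3% of all. Peaks with the motif were also of higher level, with 101.4 against 80.7 normalised reads with GFP at the median.

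**Figure D5:**
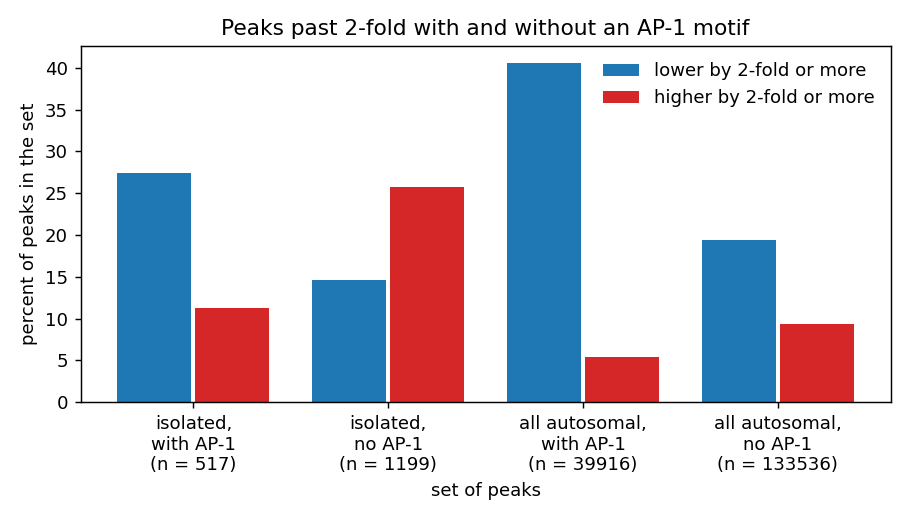
Bars give the percent of peaks at least 2-fold lower (blue) or higher (red) with Prox1, among isolated peaks and all autosomal peaks, with and without an AP-1 motif. The blue bar is 27.5% with the motif and 14.6% without it at the isolated peaks, and 40.6% and 19.4% over all autosomal peaks.

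Other motifs were searched on both strands as fixed letters, 19 in all. CTCF matches were in 114 isolated peaks (6.64%, against 6.16% of all), of which 99 were within 2-fold, 4 lower (3.51%) and 11 higher (9.65%), beside 5.51% and 3.97% of all autosomal peaks with a match. With 1 mismatch allowed CTCF matches were in 23.3%, against 26.6%, so the order of these shares turned. TEAD matches were in 188 (10.96%, against 7.71%), with 20.7% lower and 15.96% higher, beside 31.03% and 9.01% of all autosomal peaks with a match. The RUNX letters TGTGGT were in 18.2%, against 18.6%. NFY, whose letters are CCAAT, was in 540 isolated peaks (31.5%, against 24.02%). Those were lower in 16.3% and higher in 23.9%, beside 22.9% and 10.8% of all autosomal peaks with a match. The GATA letters AGATAA were in 8.39%, against 6.72%. GC boxes were in 5.59%, against 9.93%, and the ETS letters CCGGAAG in 1.63%, against 2.06%. The octamer of POU factors was in 33 isolated peaks (1.92%, against 1.15%), of which 19 (57.6%) were lower and 3 (9.09%) higher, beside 32.2% and 9.41% of all autosomal peaks with it. Of these 33, 15 were the copies in family 2, all lower, and the other 18 had 4 lower and 3 higher. Exact matches of the long HNF1 and PROX1 motifs were in none of the isolated windows, which says only that those letters were not there. Over all autosomal peaks HNF1 was in 0 and PROX1 in 38. With 1 mismatch allowed PROX1 matches were in 21 isolated peaks (1.22%, against 1.28% of all), of which 8 were lower (38.1%) and 3 higher (14.3%), beside 35.8% and 4.16% of all autosomal peaks with such a match.

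Inside genes lay 559 isolated peaks, in 410 genes, of which 313 held a single one. In 8 genes there were 5 or more, a limit chosen after seeing the data. Among these were Cntn5 with 8, Cntnap2 and Ptprd with 6 each, and Lsamp, Naaladl2, Nkain2 and Zfp804b with 5 each. In Cntn5, a contactin of axons, all 8 autosomal peaks of the gene were isolated. Their log2 differences ran from −1.51 to 2.46, with 1 lower and 1 higher. Over all autosomal peaks 8.44% were higher and 24.2% lower, and each gene's counts rest on few peaks. In Naaladl2, 3 isolated peaks were higher, with 13.3, 12.7 and 17.4 normalised reads with GFP and 105, 209 and 112 with Prox1. The other 2, at 124 and 74.3, were lower, the first of them at 56.4, and the 40 autosomal peaks of the gene had a median difference of −0.46. In Ptprd, a receptor tyrosine phosphatase of synapses, all 6 had a difference above 0, from 0.44 to 2.72, and 3 were past 2-fold, while the 75 autosomal peaks of the gene had a median of −0.58. In Nkain2 none of the 5 was above 0, from −1.20 to −0.0019, and 1 was past 2-fold, while its 19 autosomal peaks had a median of −0.64. Cntnap2 had 2 lower and 1 higher, with a median of −0.60 over its 39 autosomal peaks. Lsamp had 1 of each, with −0.38 over 57, and Zfp804b 1 higher and none lower, with −0.041 over 8.

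By the gene around or nearest to the peak, 109 isolated peaks (6.35%) were assigned to synaptic adhesion and large neuronal genes, against 1.75% of all autosomal peaks. Of these, 25 were higher (22.9%) and 17 lower (15.6%), beside 10.7% and 25.9% of all autosomal peaks at such genes. Olfactory receptor genes were nearest to 27 isolated peaks (1.57%, against 0.167%), with 10 higher (37.04%) and 2 lower (7.41%), beside 16.2% and 22.1%. The higher ones nearest Olfr1113, Olfr1211 and Olfr967 had 5.32, 6.56 and 7.21 reads with GFP, under 10, where every autosomal peak was higher. Vomeronasal and taste receptor genes were nearest to 11, with 3 higher and 2 lower, beside 22.2% and 23.3% of all autosomal peaks at them. The higher ones nearest Vmn1r225 and Tas2r140 had 5.98 and 8.99 reads with GFP, in the same class. Cadherin and protocadherin genes had 16, with 3 higher and 5 lower, beside 12.97% and 21.9%. Genes with symbols of Sox, Fox, Pou and similar transcription factors, a list that also takes every Zfp zinc finger gene, had 21 (1.22%, against 1.56%), with 2 higher and 2 lower, beside 8.23% and 17.1%. A higher peak in Zfp804b is among these 2. Predicted genes made up 1033 of the assignments (60.2%, against 30.3%), so most isolated peaks had no named gene as their nearest.

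Isolated peaks next to each other on a chromosome did not move as blocks. Over 631 neighbouring pairs the log2 differences had r = 0.034 as a description, and 51.03% of pairs had the same sign. Both were higher in 36 pairs, both lower in 25, and 1 was higher and the other lower in 51. The same was not counted over neighbouring pairs of all autosomal peaks, so no trait of the isolated peaks is read from it. Over chromosomes the pattern of the set recurred. The share of isolated peaks that were higher was above the share of all peaks on 19 of 19 autosomes, from 8.77% on chromosome 11 to 29.9% on chromosome 15. The share lower was below that of all peaks on 17 of 19, with chromosomes 3 and 8 the exceptions, at 29.9% against 27.1% and 25.7% against 23.0%. The density ran from 3.91 isolated peaks per 10 Mb on chromosome 19 to 8.76 on chromosome 16.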

How the data were processed

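Chromatin accessibility was measured by ATAC–seq in 12 libraries, of which the table used here covers 4in1_GFP_OE and 4in1_Prox1_OE (3 libraries each). Per the study's methods and the submitters' processing notes, reads were trimmed with Trimmomatic (0.38), aligned to mm10 with Bowtie2 (2.3.4.3), corrected for Tn5 insertion bias, filtered with SAMtools (1.10), Picard (2.18.16) and bedtools (2.27.1) and counted in consensus windows with DiffBind (3.4.11). Peaks were called with MACS2 (2.1.2) by the methods and with Genrich by the reporting summary. The authors deposited log2 means of normalised reads over both groups and within each group, and these 3 columns were used. For the differential analysis the methods refer to the DiffBind vignette of that version. The normalisation setting itself is not stated in the sources used here. The columns of the authors' own comparison (fold change, p-value and FDR) and their lists of enriched windows for either group hold their findings and were not used.

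The difference is the Prox1 minus the GFP log2 mean. It was called at 1 log2 unit (2-fold), with no filter and no pseudocount. Without values per library there is no error, no test and no depth. Members and lists were chosen with earlier results of these data known. Gaps count the bases between windows, and a peak with a neighbour on 1 side only was left out. Annotation was GENCODE M21 on GRCm38, promoter (within 1 kb of a start site) before exon, intron and intergenic. Motif letters came from general knowledge. Named peaks were the 5 of highest mean concentration, the 6 largest differences in each direction among members at or above the members' median concentration, the 3 with the largest nearer gap, and the 3 smallest differences among the 25% of highest concentration. Others were named after their values were seen. Windows were compared with BLAST (2.17.0) and aligned with MAFFT (7.526), in Python (3.11.15). Shares, medians and counts stand beside the same over all autosomal peaks as descriptions. The search for isolated windows was tested on simulated positions. No isolated window shared a 25-base word with the mitochondrial genome. Some named peaks, genes and windows are not reported here.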

Additional observations from a re-analysis of the deposited data

How the results depend on the processing

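No paired analysis was possible because only means of a group were at hand, not its libraries. Leaving out a replicate and a replicate block were for the same reason not run. Requiring 25 or 100 kb gave 5271 or 520 isolated peaks, and measuring start to start or counting terminal peaks gave 1730 or 1725. The lower share was 21.1% at 25 kb, 15.8% at 100 kb, 33.9% at a 1.5-fold and 0.117% at a 4-fold limit, 6.35% centred on the median of all peaks or on equal totals, 9.73% centred on the strongest 10%, and 13.2% with 10 reads added. The higher share was 16.8%, 27.5%, 26.6%, 13.1%, 26.5%, 26.5%, 24.01% and 19.5% in the same order. It was 5.72% (against 4.203% of all) without the lowest 25% of peaks by mean concentration, so most of the higher peaks lie in that band. The median difference was −0.24 at 25 kb, 0.024 at 100 kb, 0.28 in either of the first centrings, 0.13 in the last, and −0.29 without the lowest band. Added after seeing the data, a minimum of 10 reads with GFP gave 15.4% higher and a median of −0.21 (1.45 in family 1 and −1.31 in family 2), and leaving out members similar to another peak gave 19.4% higher. Under all 11 of these settings the higher share was above and the lower share below that of all autosomal peaks. The median was above too, but the fold limits and the 3 centrings could not change which median was larger. Promoters were 10.8% within 2 kb and 5.89% for protein-coding genes. AP-1 was in 36.6% with TGANTCA (28.7% of all) and CTCF in 23.3% with 1 mismatch (26.6% of all), which turns the order of the CTCF shares. At 85% identity family 1 had 5 isolated members, all higher, and family 2 had 14, all lower. With 150 aligned bases they had 9 (6 higher, 1 lower) and 21 (20 lower). None of the 23 named peaks changed its call under the 3 centrings or with 10 reads added. Their differences lay far from the 2-fold limit, so the centring shifts of −0.26 to −0.42 could not change a call. The normalisation setting and the number of reads per library, which are not known here, limit how far a difference near 2-fold can be read.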
